A study of Mus musculus with 8 samples.

Results

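Mitochondrial ribosomal protein genes were taken as all genes whose symbol starts with Mrpl or Mrps followed by a number. The rule found 76 of the 22810 genes with allele-specific counts, 47 Mrpl and 29 Mrps genes, all autosomal and spread over 17 chromosomes. These genes are encoded in the nucleus. Their proteins are made in the cytoplasm, imported into mitochondria and assembled with mitochondrially encoded ribosomal RNA into the mitochondrial ribosome, which translates the mitochondrially encoded subunits of the respiratory chain and ATP synthase. The small subunit binds the mRNA and decodes it, and the large subunit forms the peptide bonds. A part of the proteins has a homologue in bacterial ribosomes, and the others are specific to mitochondria. The rule follows the symbols, and not every symbol matches its subunit. Mrps18a and Mrps30 are known as proteins of the large subunit, and Mrps36 is now known as a component of the oxoglutarate dehydrogenase complex. Counts of both subunits below follow these roles.

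RNA was sequenced from single mouse blastocysts on embryonic day 3.5, which hold trophectoderm and inner cell mass together. The forward cross joined C57BL/6 (B6) mothers with Mus musculus castaneus (cast) fathers and gave 3 embryos. The reverse cross joined cast mothers with B6 fathers and gave 5 embryos (numbers 1, 2, 3, 5 and 7). All embryos came from natural mating, were F1 hybrids with one B6 and one cast genome, received no treatment and were lysed without culture. For each gene, the reads that cover a SNP were counted separately for the B6 and the cast allele of an embryo, so that 16 allele libraries were available and B6 reads are maternal in the forward cross and paternal in the reverse cross. SNP-spanning reads summed to between 1060063 and 1632695 per embryo, of which 12073 to 31184 fell on the mitochondrial ribosomal protein genes.

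Every gene of the fixed trophectoderm and inner cell mass marker lists had reads, and so had every gene of the oocyte and leukocyte lists. Of the other marker lists, the 8 leukocyte genes summed to 36.0 to 689 RPM (reads per 1000000 SNP-spanning reads) in forward embryos and to 4.004 to 5.63 RPM in reverse embryos, with the highest value in forward embryo 1. Oocyte markers stayed between 14.6 and 52.5, cumulus markers between 2.25 and 11.3, red cell markers between 0 and 0.943 and markers of uterus and oviduct between 86.3 and 219. The part of these cells in the results below was not tested. Reverse embryo 1 stood apart from the others and is described first, and results that rest on it are given with and without it.

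The summed level of the 76 genes was 16898, 17992 and 19991 RPM in forward embryos 1, 2 and 3. It was 8021 in reverse embryo 1 and 15916, 20810, 18351 and 17173 in reverse embryos 2, 3, 5 and 7. Thus 7 embryos of both crosses overlapped between 15916 and 20810, and reverse embryo 1 lay below all of them. Of the 73 genes with enough reads for testing, 54 (74.0%) had their lowest level in reverse embryo 1, against 24.9% of all 12564 tested genes. Both subunits were low in this embryo, with 2780 RPM for the small subunit (5536 to 7201 in the others) and 5227 for the large subunit (10364 to 13605 in the others). Hence the ratio of small to large subunit reads, 0.532 in reverse embryo 1, lay inside the range of the other embryos, 0.488 to 0.541.

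**Figure D1:**
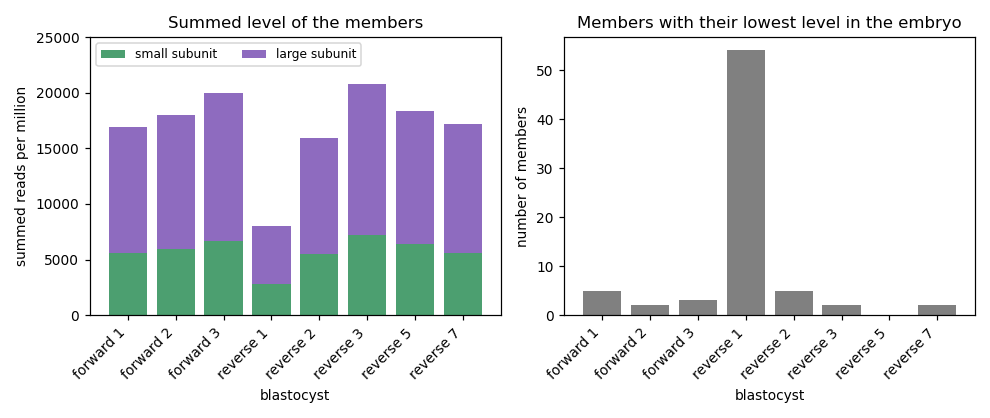
Left, summed level of the 76 genes in RPM in each blastocyst (y axis from 0), split into small (green) and large (purple) subunit with Mrps36 left out. Right, the number of the 73 tested genes that had their lowest level in each blastocyst. Reverse embryo 1 has the lowest sum in the left panel and 54 genes in the right panel.

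Other values moved with the low level of reverse embryo 1. Its 72 cytoplasmic ribosomal protein genes summed to 21228 RPM (27894 to 40529 in the others), its 93 genes of oxidative phosphorylation to 22317 (34333 to 42550) and its trophectoderm markers to 1584 (4970 to 6573). Genes spanning more than 100 kb took 27.2% of its reads against 8.57% to 14.5% elsewhere. Their part in the low level was not tested. The total was not low, with 1505155 SNP-spanning reads, and the level is a share of them. In whole embryos, fewer cells of a type and less of these RNAs per cell cannot be told apart. The drop was not equal among members. Mrps26, a protein of the small subunit chosen here after its values were seen, was at 0.664 RPM in reverse embryo 1 and at 51.9 to 81.4 in the 7 others. Mrps6 in contrast was at 208 RPM in reverse embryo 1, inside the range of 112 to 305 in the other embryos.

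No single member was called different in level between the crosses. In the test of allele-summed counts (edgeR quasi-likelihood), 0 of 73 genes passed an adjusted p of at most 0.1, against 0.103% of all tested genes. No member had an unadjusted p under 0.05 in edgeR, and DESeq2 called 0 members (background 1.03%) with 1 unadjusted p under 0.05. The smallest p belonged to Mrps6, a bacterial-type protein of the small subunit, with 157, 128 and 112 RPM in forward embryos and 208, 305, 145, 179 and 189 in reverse embryos. Its log2 difference (reverse over forward) was 0.64 (SE 0.31, edgeR adjusted p = 0.678). Mrps5, another small subunit protein with a bacterial homologue, had 302, 267 and 235 RPM in forward embryos and 78.4, 152, 149, 252 and 158 in reverse embryos (log2 difference -0.73, SE 0.36, edgeR adjusted p = 0.678). In each of these genes 1 reverse embryo fell inside the forward range. Mrpl11 (log2 difference -0.56), Mrps16 (0.47) and Mrps11 (-0.51) followed, with edgeR adjusted p of 0.701, 0.744 and 0.747. Leaving out reverse embryo 1 also gave 0 calls, with 1.37% of all genes called. With all embryos, the log2 difference was negative (lower in the reverse cross) in 50 of 73 members. Its median was -0.13 over the members and 0.08 over all genes, and this lean was not tested.

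SNP-spanning reads were plentiful for most members. The median member that could be tested had 2054 reads over the 8 embryos, against 309 for the median tested gene, and 69 members had at least 200. Mrps24 (8571 reads), Mrpl17 (8193), Mrps12 (7089), Mrpl13 (6316), Mrpl20 (6157) and Mrpl40 (5951) had the most. Read numbers here depend on the number of SNPs in a transcript and are no levels that can be compared between genes. Mrps14 (8 reads), Mrpl30 (11) and Mrpl21 (29) did not reach 10 reads in any allele library and were not tested. All 8 reads of Mrps14 were maternal, which still allows a paternal share of up to 37.5% by counting error alone.

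Before the allele values, the sequence upstream of 4 members is shown, since Mrpl48 and both Mrps6 and Mrpl17 carried the largest called strain differences toward B6 and cast for which such sequence was at hand, and Mrps18a had the highest chi-square of its allele share between embryos. The sequences are of the B6 reference (RefSeq, GRCm38.p6), written 5' to 3' along the gene, and only the stretch outside annotated exons of the window from 250 bases before to 50 bases after the RefSeq start is printed. Capitals mark CCGGAAG, the core site of ETS factors, on either strand. No cast sequence was read. RefSeq lists 4 start windows for Mrpl48. The one at the annotated gene start is shown and holds no match, while the downstream window at chr7:100583081-100583380 holds 1 at position -34 from its start.
Mrpl48, chr7:100608302-100608551, minus strand: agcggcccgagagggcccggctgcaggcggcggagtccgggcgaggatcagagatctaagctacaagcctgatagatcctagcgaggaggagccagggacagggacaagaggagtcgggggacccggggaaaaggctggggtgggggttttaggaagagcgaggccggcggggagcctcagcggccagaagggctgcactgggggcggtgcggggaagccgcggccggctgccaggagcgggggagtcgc
Mrps6, chr16:92058086-92058269, plus strand: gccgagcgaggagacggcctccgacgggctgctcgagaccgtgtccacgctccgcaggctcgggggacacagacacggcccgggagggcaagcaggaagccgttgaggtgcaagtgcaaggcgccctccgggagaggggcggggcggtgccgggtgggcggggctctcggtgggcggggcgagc
Mrpl17, chr7:105811100-105811337, minus strand: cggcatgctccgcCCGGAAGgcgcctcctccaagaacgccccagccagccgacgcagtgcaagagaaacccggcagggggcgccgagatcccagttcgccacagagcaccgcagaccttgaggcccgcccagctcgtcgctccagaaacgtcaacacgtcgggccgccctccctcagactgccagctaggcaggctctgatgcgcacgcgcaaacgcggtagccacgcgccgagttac
Mrps18a, chr17:46110754-46110985, plus strand: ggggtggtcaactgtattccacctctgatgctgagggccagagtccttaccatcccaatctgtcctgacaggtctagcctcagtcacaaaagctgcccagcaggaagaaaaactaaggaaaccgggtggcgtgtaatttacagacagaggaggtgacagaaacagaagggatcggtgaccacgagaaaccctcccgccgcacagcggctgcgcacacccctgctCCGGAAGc

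Of the 76 genes, 67 had a promoter window in RefSeq. CCGGAAG occurred in the window of 24 of them (35.8%), against 19.3% of the tested genes and 9.93% of all genes with a window. It ended close to the start site in Mrps18a and lay far upstream in Mrpl17. The word of 11 letters searched for YY1 was in the windows of 5 members (7.46%, against 1.69% of tested genes), and that of 10 letters for NRF1 in 3 (4.48%, against 2.12%). ETS factors of the GABP type and NRF1 are long known regulators of nuclear genes for mitochondrial proteins. CCAAT was found for 40.3% of members and 42.1% of tested genes with a window, and GGGGCGGGG, bound by SP1, for 19.4% and 22.8%. All 5 motifs were searched on both strands, none contains another, and matches of the ETS and YY1 words can share bases. A match is a description of the letters, not of binding.

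The allele comparison asked first whether the B6 or cast allele gave more reads in both crosses. Without a term for each embryo, 8 of 73 mitochondrial ribosomal protein genes were called (11.0%, edgeR adjusted p at most 0.1), against 15.4% of all tested genes. With this term, described below, the share of members called lay above that of all genes (34.2% against 25.5%). Of the 8, 2 had more reads from B6 (background 10.9%) and 6 from cast (background 4.47%). The direction depends on how the allele libraries are scaled, since with 1 library size per embryo for both alleles 8 were called too (background 20.9%), but 7 toward B6 (background 18.3%) and 1 toward cast (background 2.6%), while the median log2 difference of all genes moved from -0.06 to -0.39. The median log2 difference (cast over B6) of the members was 0.11, relative to -0.06 for all genes, and 53 of 73 members (72.6%) lay within 0.5 of 0 against 48.9% of all genes. Members were read more deeply (median 2054 reads against 309), and these shares were not compared at equal depth. Summed over the 76 genes, the B6 share was 54.2% to 55.2% in the 8 embryos, while it was 57.4% to 58.3% over all genes. These sums weigh deeply read genes most. Medians over single genes, taken where 20 or more reads were counted, lay closer together. They were 52.7% to 56.6% for members and 55.4% to 58.0% for all genes. In forward embryo 2 the members had the higher median (56.6% against 55.7%). Members were lower in the other embryos, but hardly so in reverse embryo 3 (55.3% against 55.4%).

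The alleles of an embryo come from the same animal. With a term for each embryo, 25 of 73 members (34.2%) were called, against 25.5% of all genes, 10 toward B6 and 15 toward cast (backgrounds 15.7% and 9.88%). All 8 calls of the fit without this term were among the 25. Leaving out reverse embryo 1 raised the calls from 8 to 15 (5 toward B6), with 20.5% of all genes called in that fit. Leaving out forward embryo 2 or 3 lowered them to 4 and 5, with 10.6% and 10.4% of all genes called.

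**Figure D2:**
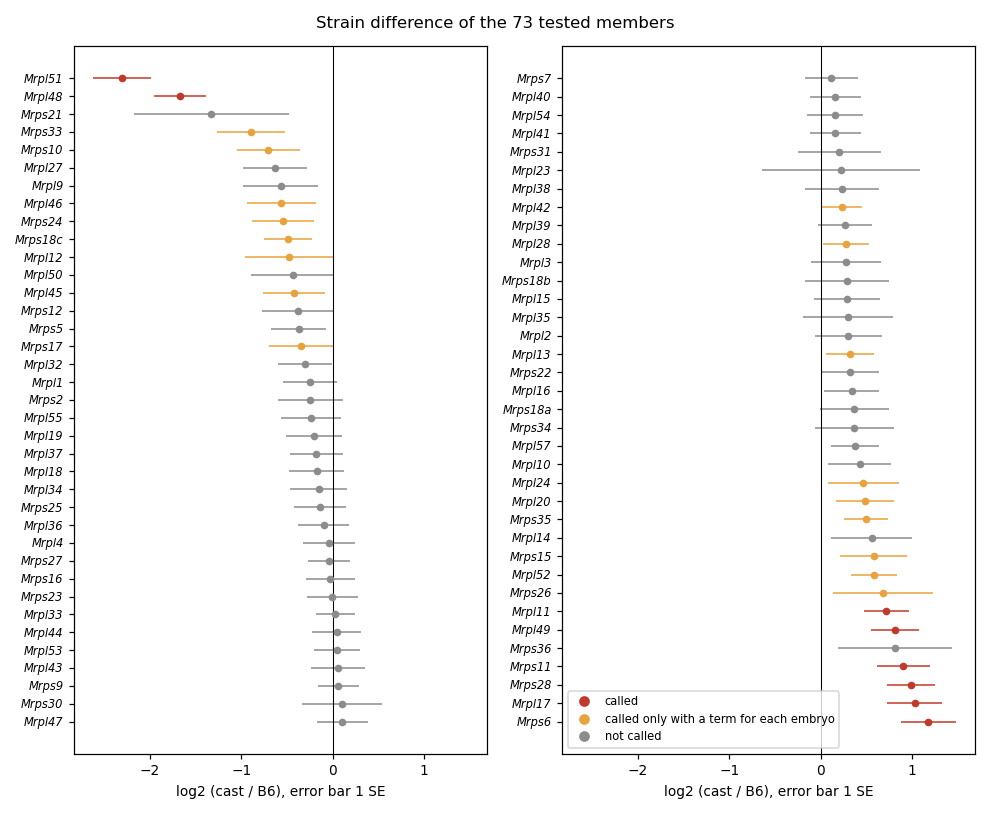
log2 difference of cast over B6 reads for each of the 73 tested genes (points, x axis) with 1 SE, ordered from B6 to cast over both panels. Red genes were called, orange genes were called only with a term for each embryo, and grey genes were not. Most points lie within 0.5 of 0, and Mrpl51 and Mrpl48 lie farthest toward B6.

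Reads of overlapping genes and near-identical copies limit what an allele share can show. Exons of 32 members overlap another annotated gene, 27 of them on the opposite strand, and 17 members have a pseudogene transcript of at least 95% identity over at least 200 bases. Reads mapping to several places were left out by the authors, and whether counting used the strand is not given in the sources used here. Reads of both alleles were aligned to mm10, a B6 genome, and B6 took 57.4% to 58.3% of reads over all genes. The part of this alignment in shares toward B6 was not tested.

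The largest called strain difference was that of Mrpl51, a mitochondria-specific protein of the large subunit (chr6:125191801-125196269, mm10). With B6 as the mother, 91.0%, 81.7% and 85.5% of its reads were from B6. With B6 as the father, the share was 91.3%, 82.2%, 82.0%, 88.0% and 87.4%. Values are in the order of the embryo numbers here and below. The B6 allele thus gave most reads in 8 of 8 embryos, whether it came from the mother or the father (log2 difference -2.30, SE 0.32, edgeR adjusted p = 1.81e-05). The processed pseudogene Gm14017 matches 387 bases of the Mrpl51 transcript at 98.5% identity. Whether reads of a copy took part in this difference was not tested.

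Mrpl48, also a mitochondria-specific protein of the large subunit, lies at chr7:100545751-100608301. Reads from B6 made up 86.2%, 71.9% and 84.3% in the forward cross and 65.2%, 81.3%, 80.2%, 74.7% and 83.5% in the reverse cross. All embryos were above the share over all genes (log2 difference -1.67, SE 0.29, edgeR adjusted p = 2.41e-04). The Mrpl48 exons overlap those of Rab6a on the opposite strand by 708 bases, and the pseudogene Mrpl48-ps matches 636 bases at 98.1% identity. Their part was not tested.

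Among the members with more cast reads, Mrps6 had the largest difference (chr16:92058270-92112227). Its B6 share was 34.4%, 27.0% and 38.5% in forward embryos and 26.8%, 43.3%, 40.8%, 33.5% and 44.5% in reverse embryos. Cast reads prevailed in 8 of 8 embryos (log2 difference 1.18, SE 0.31, edgeR adjusted p = 0.0119). Slc5a3 and Gm49711 share 159 and 305 exonic bases with Mrps6 on the same strand, and the part of these bases was not tested. Mrpl17, a large subunit protein with a bacterial homologue, was steadier. It showed B6 shares of 39.4%, 31.6% and 36.5% in forward embryos and of 35.8%, 42.5%, 39.0%, 40.5% and 42.1% in reverse embryos, all 8 on the cast side, from 8193 reads (log2 difference 1.03, SE 0.30, edgeR adjusted p = 0.0267). No overlapping exon and no near-identical copy was found for Mrpl17. Its call was lost without forward embryo 2 or 3 (log2 difference 0.98 and 1.04, edgeR adjusted p = 0.122 and 0.119) and with 1 library size per embryo (0.70, edgeR adjusted p = 0.127), and had an edgeR adjusted p of 2.19e-09 with a term for each embryo.

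Mrps28, a protein of the small subunit, was on the cast side in 7 of 8 embryos. Its B6 share was 48.1%, 35.8% and 34.6% in forward embryos and 51.9%, 33.3%, 33.9%, 31.4% and 37.6% in reverse embryos (log2 difference 0.99, SE 0.26, edgeR adjusted p = 0.0143). Both embryos numbered 1 were near an even share, and the 6 others lay between 31.4% and 37.6%. Mrps11, on the platform of the small subunit, had a B6 share between 35.7% and 47.3% in all 8 embryos from only 769 reads (log2 difference 0.90, SE 0.29, edgeR adjusted p = 0.0456). Mrpl49 reached 35.1% to 50.7% (0.81, SE 0.26, edgeR adjusted p = 0.0464) and Mrpl11, at the base of the factor-binding stalk, 37.7% to 50.3% (0.72, SE 0.24, edgeR adjusted p = 0.0575). These last 3 calls were lost with 1 library size per embryo (log2 difference 0.57, 0.48 and 0.38, edgeR adjusted p = 0.213, 0.245 and 0.330) and without some single embryos, while the log2 difference then stayed at 0.81 to 0.90 for Mrps11, 0.69 to 0.81 for Mrpl49 and 0.66 to 0.74 for Mrpl11. Without 1 of forward embryos 2 and 3 or reverse embryo 5, the edgeR adjusted p of Mrps11 was 0.130, 0.179 and 0.106, and that of Mrpl49 was 0.143, 0.247 and 0.109 without forward embryos 2 and 3 and reverse embryo 7. The edgeR adjusted p of Mrpl11 rose to 0.192 and 0.155 when forward embryo 1 or 2 was missing, and to 0.102, 0.124 and 0.103 when this was reverse embryo 2, 3 or 5.

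**Figure D3:**
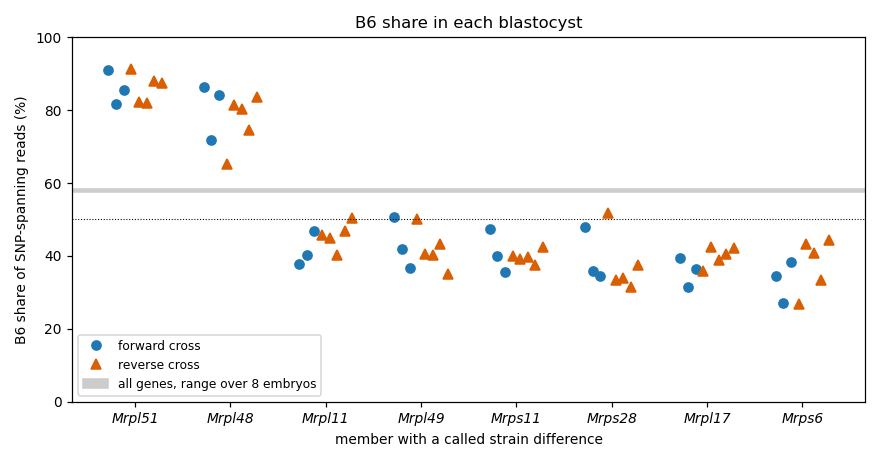
B6 share of SNP-spanning reads (y axis, %) of the 8 called members in each of 3 forward (circles) and 5 reverse (triangles) embryos, with embryo numbers rising from left to right in each gene. The grey band is the share over all genes (57.4% to 58.3%) and the dotted line marks an even share. Circles and triangles of a gene lie on the same side of the band.

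Mrps11 and Mrpl46 are neighbours on chromosome 7 with opposite strands, and their exons overlap by 173 bases at their starts (Mrps11 at chr7:78783119-78792989, Mrpl46 at chr7:78775236-78783531). Their alleles differed in opposite directions. Mrpl46, a mitochondria-specific protein of the large subunit, had a B6 share of 65.4%, 65.5% and 63.8% in forward embryos and 82.5%, 64.3%, 64.5%, 64.7% and 63.0% in reverse embryos. Apart from reverse embryo 1, these 7 values lay within 63.0% to 65.5%. Mrpl46 was called only with a term for each embryo (log2 difference -0.63, SE 0.13, edgeR adjusted p = 0.00102, against -0.56 and 0.414 without it). Mrps24, a bacterial-type protein of the small subunit and the member with the most reads, was also called only with this term. Its B6 share was 64.1%, 65.4% and 64.3% in forward embryos and 69.4%, 67.8%, 62.8%, 62.6% and 66.0% in reverse embryos (with the term -0.56, SE 0.09, edgeR adjusted p = 2.54e-05, without it -0.54 and 0.369). Urgcp shares 226 exonic bases with Mrps24 on the same strand, and their part was not tested.

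Calls were found in both subunits. Of 25 tested small subunit genes, 3 were called toward cast and 0 toward B6, and of 47 large subunit genes 3 and 2, beside 4.47% and 10.9% of all genes. The fit with embryo terms gave 6 and 5 for the small and 9 and 5 for the large subunit (9.88% and 15.7% of all genes). With 1 library size per embryo they were 1 and 4 for the small and 0 and 3 for the large subunit (2.6% and 18.3%). The median absolute log2 difference was 0.37 in the small and 0.29 in the large subunit, against 0.52 over all genes, which were read less deeply. Of the 66 members with at least 20 reads in every embryo, 17 (25.8%) had more B6 reads in all 8 embryos and 5 (7.58%) more cast reads, against 20.7% and 2.84% of the 5607 genes with such depth.

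The comparison the reciprocal crosses were made for, paternal against maternal allele, gave 0 of 73 members at an edgeR adjusted p of at most 0.1, with 1.42% of all tested genes called. No member reached an unadjusted p under 0.05 in edgeR, against 7.31% of all tested genes. DESeq2 had 1 such member, against 7.004% of all tested genes, and 0 calls (background of calls 2.02%). A term for each embryo did not add any (0 of 73, with 3.1% of all genes called). The parental log2 difference of 68 members (93.2%) was within 0.5 of 0, against 67.4% of all genes, and the median absolute difference was 0.10 for members and 0.29 for all genes. These values too set deeply read members (median 2054 reads) against shallower genes (median 309) and were not compared at equal depth.

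Equal expression of both parental alleles was tested against a margin of 1 on the log2 scale. Of 73 members, 60 (82.2%) were called equivalent, against 35.4% of all genes. Members were also read more deeply than other genes. Among genes with at least 10 reads in every embryo the share was 65 of 68 members (95.6%) against 78.1%. With a term for each embryo, 65 of 73 were called against 45.3%. Fewer forward embryos gave fewer calls, 35 without forward embryo 2 and 32 without forward embryo 3, with 14.6% and 12.9% of all genes called in these fits. The equivalent members included Mrpl51 and Mrpl48 (parental log2 difference -0.08, SE 0.31, edgeR adjusted p = 0.0303, and -0.11, SE 0.28, edgeR adjusted p = 0.0255).

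**Figure D4:**
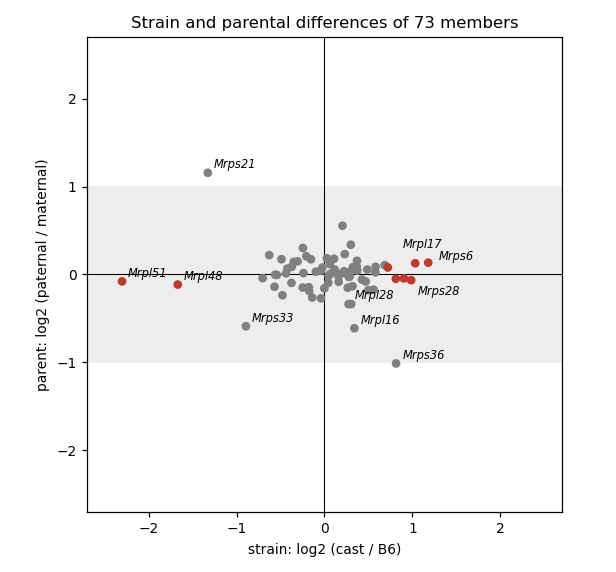
Strain (x axis, log2 cast over B6) and parental difference (y axis, log2 paternal over maternal) of the 73 tested genes, on the same scale. Red points had a called strain difference, and the grey band shows the equivalence margin of 1. The red points spread along the strain axis and stay near 0 on the parental axis.

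Members with the smallest parental p were mainly shallow. Mrpl16, a large subunit protein beside the peptidyl transferase centre, had 619 reads and a B6 share of 59.8%, 62.5% and 59.3% in forward embryos and of 31.9%, 62.7%, 29.8%, 49.4% and 30.5% in reverse embryos. Its maternal allele thus prevailed in 7 of 8 embryos, reverse embryo 2 being the exception (log2 difference of paternal over maternal -0.61, SE 0.30, edgeR adjusted p = 0.702). Mrps36 (148 reads, -1.01, SE 0.62), Mrps33 (345 reads, -0.59, SE 0.37) and Mrps21 (61 reads, 1.16, SE 0.84) had edgeR adjusted p of 0.934, 0.944 and 1. These 4 were not called equivalent either, so that neither a difference nor its absence was shown. Mrps36, Mrps33 and Mrps21 also have near-identical pseudogenes, among them Mrps36-ps1 (99.3% identity), Gm5776 (99.7%) and Gm6181 (97.3%). The part of these copies was not tested.

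Mrpl28, a large subunit protein with a bacterial homologue, had far more reads (4784). Its B6 share was 58.3%, 57.2% and 54.6% when B6 was maternal and 35.9%, 45.6%, 45.4%, 49.0% and 47.0% when B6 was paternal, and the crosses did not overlap. Shares of Mrpl18 and Mrps18c did not overlap between the crosses either. Mrpl28 was the only one of the 66 members with 20 reads in every embryo that had more maternal reads in 8 of 8 embryos (1.52%, against 0.731% of such genes), and 0 members had more paternal reads in all 8 (against 1.16%). Its difference was small (log2 -0.34, SE 0.25, edgeR adjusted p = 1, and 0.101 with a term for each embryo), and Mrpl28 was called equivalent within the margin (edgeR adjusted p = 0.0403).

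Mrpl23 lies 34.8 kb from H19 and 110 kb from Igf2 on chromosome 7 (chr7:142532686-142540747), next to an imprinted domain. Only 83 reads covered its SNPs, 39 maternal and 44 paternal, and single embryos ranged from 0% to 100% B6. The processed pseudogene Mrpl23-ps1 matches 507 bases of the Mrpl23 transcript at 100% identity, and its part was not tested. Mrpl23 was neither called biased nor equivalent (parental log2 difference 0.04, SE 0.87, edgeR adjusted p = 1 and 0.259).

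The spread of the B6 share between embryos of a cross is given as its chi-square per degree of freedom. It would be near 1 if reads were independent, which reads of amplified cDNA are not, and it grows with depth, so that it does not rank members read to different depth. It had a median of 3.501 over 69 members and 3.79 over all 7441 genes with at least 200 reads. Without reverse embryo 1 both fell, to 2.69 and 3.01. Reverse embryo 1 had 17 members beyond a share of 70:30 in either direction, against 5 to 9 in the other embryos, with a median of 143 reads per tested member against 182 to 338.

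**Figure D5:**
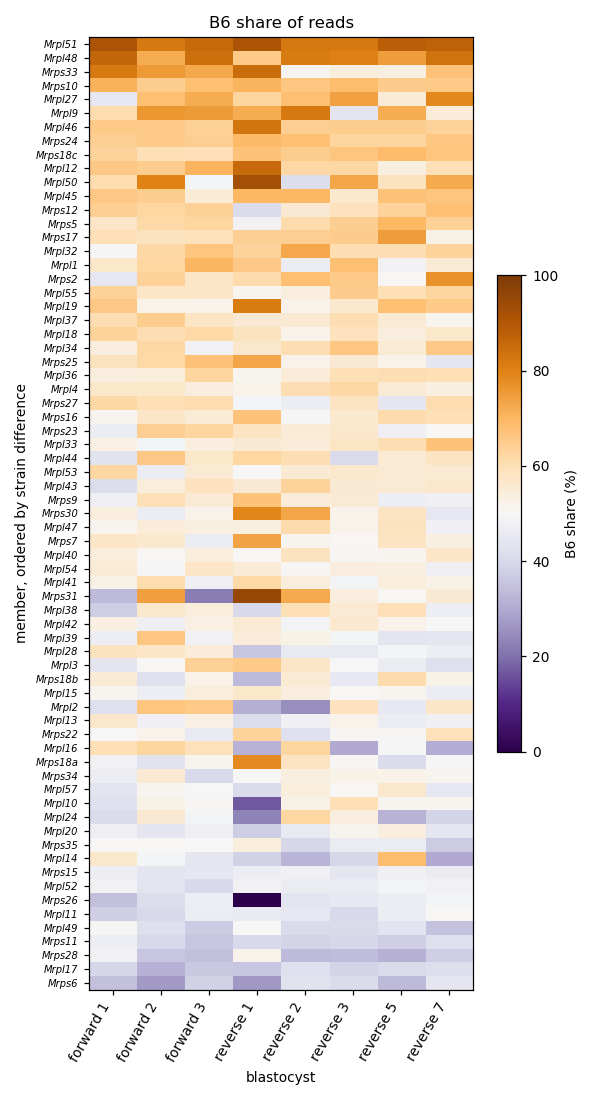
B6 share of SNP-spanning reads (colour, 0% to 100%) of the 69 members with at least 200 reads (rows, ordered by strain difference) in each blastocyst (columns). The column of reverse embryo 1 stands out, with 17 of the tested members beyond 70:30.

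Mrps18a had the highest chi-square per degree of freedom, 14.5 from 4609 reads. Its B6 share was 48.4%, 43.1% and 51.3% in forward embryos and 78.1%, 57.8%, 50.6%, 40.7% and 49.5% in reverse embryos. Reverse embryo 1 was the highest, and without it the spread was 8.52. In Mrpl19 the B6 share was 65.6%, 52.0% and 51.7% in forward and 81.3%, 51.6%, 55.9%, 68.2% and 65.6% in reverse embryos (spread 13.1, and 8.64 without reverse embryo 1). Mrps12, which sits in the decoding centre, went the other way, with 40.9% in reverse embryo 1 and 55.6% to 67.6% in the 7 others (10.6 and 6.47). Mrpl24 kept its spread without this embryo (8.81 and 8.67), as its B6 share was 62.4% in reverse embryo 2 and 31.9% in reverse embryo 5. Mrpl48 had 8.47 and 6.52. On the opposite strand, Gcfc2 shares 1962 exonic bases with Mrpl19 and Rrnad1 shares 594 with Mrpl24. The part of these bases was not tested.

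Other members had a spread under 1. The B6 share of Mrps18c was 63.3%, 59.9% and 59.7% in forward and 67.0%, 64.6%, 66.5%, 69.1% and 66.7% in reverse embryos (spread 0.487). Mrpl18 (0.495) and Mrps11 (0.680) were similar. Shares above 90% from at least 20 reads occurred in 4 embryo values. These were Mrpl51 in forward embryo 1 and reverse embryo 1, Mrpl50 in reverse embryo 1 (25 of 27 reads, 92.6%, exact binomial 95% interval 75.7% to 99.1%) and Mrps31 in reverse embryo 1 (20 of 21 reads, 95.2%, 76.2% to 99.9%). The same Mrps31 had 22.2% in forward embryo 3 and 33.3% in forward embryo 1. Intervals cover counting error only.

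Other nuclear genes for mitochondrial translation had 0 parental calls and 7 strain calls among 60 tested, all 7 toward B6 without a term for each embryo (with it 10 toward B6 and 4 toward cast, against 15.7% and 9.88% of all genes). With 1 library size per embryo 13 were called toward B6 and 0 toward cast, against 18.3% and 2.6% of all genes. Among 5 further mitochondrial ribosome proteins with other names, 1 was called, Gadd45gip1 of the large subunit (log2 difference of cast over B6 -1.64, SE 0.34, edgeR adjusted p = 0.00170), and 4 were equivalent between parents. Translation factors had 2 of 11 called, the elongation factor Tufm (-1.86, SE 0.30, edgeR adjusted p = 9.87e-05) and the initiation factor Mtif3 (-0.78, SE 0.27, edgeR adjusted p = 0.0654), and 8 equivalent. Of 20 ribosome assembly genes, 2 were called, Rbfa and Fastkd2 (-1.18 and -1.64), and 8 were equivalent. For 16 mitochondrial tRNA synthetases the numbers were 1 (Lars2, -1.06) and 10, and for 8 genes of mitochondrial transcription and RNA processing 1 (Elac2, -0.78) and 4. Over all tested genes 10.9% were called toward B6 and 35.4% equivalent.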

How the data were processed

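RNA of single blastocysts was sequenced after SMART-Seq2 amplification of polyA RNA. The authors aligned reads to mm10 with STAR (version 2.5.2b in the submitters' processing notes), left out reads mapping to several places and reads not covering SNPs, and deposited raw read counts per gene, embryo and strain without normalization, taken from a step of Allelome.Pro. Gene positions came from GENCODE M21 by symbol and, where missing, RefSeq. Tests covered the 12564 autosomal genes that reached 10 reads in any allele library.

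Strain and parent were terms of an edgeR 4.0.16 quasi-likelihood fit (limma 3.58.1, R 4.3.3) over all genes with TMM scaling and Benjamini-Hochberg adjustment. Equivalence used a pair of one-sided tests against a log2 margin of 1. Levels are allele-summed reads per 1000000 SNP-spanning reads (RPM). Alternatives were DESeq2 1.42.0, RLE factors, 1 library size per embryo, other filters, a term for each embryo and leaving out each embryo. The alleles of an embryo form a true pair, being from 1 animal, and their deviations from the group means correlated at 0.0821 to 0.487. P-values of the strain, parental and equivalence tests without a term for each embryo rest on the spread between the 16 allele libraries. These tests count both alleles of an embryo as separate libraries. P-values of the cross test rest on the spread between the 8 embryos, each a separate animal. The counts per embryo set the precision of each share.

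The members, gene lists and tests were chosen with earlier results of these data known. Genes named were those called, those with the largest strain difference, smallest p, most reads, largest or smallest spread, the untested members and Mrpl23. Mrpl46, Mrps26, Mrpl50 and Mrps31 were named after their values were seen. Promoter windows are from RefSeq (GRCm38.p6).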

Additional observations from a re-analysis of the deposited data

Results flagged for a closer look

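Of 54 values of named members and sums tested for a single reverse embryo far from the other 4 (Dixon's test), 5 were flagged, and chance flags about 1 in 20. Mrpl28 was flagged in reverse embryo 1 for both its B6 share (35.9% from 126 B6 and 225 cast reads, against 45.4% to 49.0%) and its level (233 RPM, against 408 to 446). The B6 share summed over all members was 54.3% in the same embryo and 54.9% to 55.0% in the others, a gap that is small in size. Mrps36 had 77.8% B6 reads in reverse embryo 2 (21 of 27 reads) and 0% to 13.6% in the others, where 5 to 29 reads were counted. Mrps21 had 50% in reverse embryo 3 from 2 B6 and 2 cast reads, against 91.7% to 100% elsewhere.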

How the results depend on the processing

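The number of members with a called strain difference was 8 (15.4% of all genes called). It was 25 with a term for each embryo, the pairing of both alleles of 1 animal (25.5% of all genes called), and 4 to 15 when each embryo was left out in turn (9.89% to 20.5% of all genes). It was 7 to 10 under 6 other settings, with 13.0% to 20.9% of all genes called. These were DESeq2 (10), quasi-likelihood with legacy = FALSE (9), RLE factors (8), 1 library size per embryo (8), at least 10 reads in every embryo (8) and no filter (7). With 1 library size per embryo, 3 of the 8 calls were shared with the main ones. The setting legacy = FALSE and the spread without reverse embryo 1 were added after seeing the data. Equivalent members numbered 60 (35.4% of all genes called). They were 60 to 65 under 6 settings (17.5% to 78.1% of all genes) and 32 to 66 when an embryo was left out (12.9% to 47.4%). Parental and cross calls stayed at 0 throughout, beside 0.961% to 3.1% and 0% to 1.37% of all genes. Of 120 checks of the 8 called strain differences, 19 lost the call, in 5 genes, and 0 changed sign. The 137 checks of parental and cross differences had no call to lose.

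The calls of Mrpl51, Mrpl48 and Mrps6 passed in all 15 alternatives, with log2 differences of -2.64 to -2.16, -2.003 to -1.56 and 0.84 to 1.26. Mrps28 lost its call with 1 library size per embryo only. Embryos of both crosses share numbers 1, 2 and 3, but their deviations correlated at 0.129, 0.00473 and 0.107, so the numbers were not taken as pairs. A block on them gave 0 calls (0.0716% of all genes called).

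With 3 forward embryos, parental tests rest on few maternal B6 libraries. Shallow members such as Mrpl23, Mrps21 and Mrps36 could not be called biased or equivalent at this depth.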
